A study of Mus musculus with 4 samples.

Results

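The genes described are 10 that antigen receptor signalling induces in T cells and that report recent signalling: the nuclear receptors Nr4a1, Nr4a2 and Nr4a3, the surface protein gene Cd69, the A20 gene Tnfaip3, the MAP kinase phosphatase genes Dusp2, Dusp4, Dusp5 and Dusp6, and the Sprouty gene Spry1. They were taken by symbol, and all 10 were among the 22480 gene symbols used. RNA was sequenced from cells sorted out of mouse spleen (C57BL/6 background) in 4 libraries, 1 per group. Invariant natural killer T cells (iNKT), an innate-like lineage that recognises lipids on CD1d, were sorted by their binding of antibody to T cell receptor beta and of loaded CD1d tetramers; CD44-high CD4+ T cells (CD44hi), the antigen-experienced fraction, were sorted by T cell receptor beta, CD44 and CD4. Each cell type came from wild-type mice (WT) and from a knockout line (KO) of the genotype Ezh2fl/fl CD4-Cre. There the Cd4 promoter drives Cre, which is meant to remove a floxed part of Ezh2, the methyltransferase of Polycomb repressive complex 2. No treatment is named other than sorting, and the age, sex and number of animals behind each library are not given in the sources used here.

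When the T cell receptor is engaged, the ERK, calcium and NF-kB pathways switch on a set of genes within minutes to hours. The NR4A factors are orphan nuclear receptors whose amounts follow the strength of the signal, and they restrain effector genes. CD69 holds cells in tissue by removing the sphingosine-1-phosphate receptor S1PR1 from the surface. A20 dampens NF-kB, the dual-specificity phosphatases (DUSP) remove phosphates from MAP kinases, and Sprouty proteins dampen signalling from receptors to Ras and ERK, so these genes act as feedback on the pathway that induces them. In iNKT cells this wave is part of selection in the thymus, where strong receptor signals precede the lineage factor PLZF.

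Levels are FPKM, the fragments of a gene scaled by its length and by the depth of the library, so genes can be set side by side per length. The depth estimated from the steps between low values was about 4890000 fragments for WT iNKT, 5290000 for KO iNKT, 18000000 for WT CD44hi and 23900000 for KO CD44hi. Intervals in brackets are 95% exact intervals from the estimated fragments and cover counting error alone, not variation between mice or sorts. Genes were called where the difference of log2(FPKM + 1) reached 1 in size, which is 2-fold on that scale, and at least 1 of the 2 libraries held 1 FPKM or more. With 1 library per group there was no replicate to check a difference against, and nothing was tested. The T cell gene Cd3e was at 307 to 357 FPKM in all 4 libraries. Zbtb16, which encodes PLZF, was at 28.2 FPKM (WT) and 63.1 (KO) among iNKT cells and at 4.30 (WT) and 41.4 (KO) among CD44hi cells, so the KO CD44hi library was not low in this iNKT marker. The 5 iNKT markers, Cd3e and Zbtb16 among them, were mixed, with a sum of 1845 FPKM in WT iNKT and 759 in KO iNKT. Cxcr6 (468 to 94.6 FPKM) and Il2rb (814 to 198) were called lower in KO iNKT, and Klrb1c was at 177 and 96.2. From WT to KO CD44hi, Klrb1c was called higher (14.9 to 58.5 FPKM). Within 2-fold in that pair, Cxcr6 rose (69.6 to 127 FPKM) and Il2rb fell (178 to 102). The targeted gene Ezh2 was at 15.3 (WT iNKT), 16.8 (KO iNKT), 28.9 (WT CD44hi) and 18.5 FPKM (KO CD44hi), a value over the whole gene that does not check the deletion. The Y-linked gene Ddx3y stood at 11.5 FPKM in WT CD44hi and at no more than 0.00445 in the other libraries, while Xist was at 46.8 to 80.0 in all 4, so male as well as female RNA was in WT CD44hi, the library that every WT CD44hi comparison rests on. In sorted bulk cells, fewer cells of a type and less RNA per cell cannot be told apart.

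The abundant members were Dusp2, Tnfaip3, Nr4a1 and Cd69, and the scarce ones Nr4a2, Nr4a3, Dusp4 and Spry1. Dusp2 stood first of the 10 in every library, above 96.5% to 98.9% of all genes at 1 FPKM or more. Dusp4 was last in 3 libraries, and in WT CD44hi Nr4a2 was last.

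**Figure D1:**
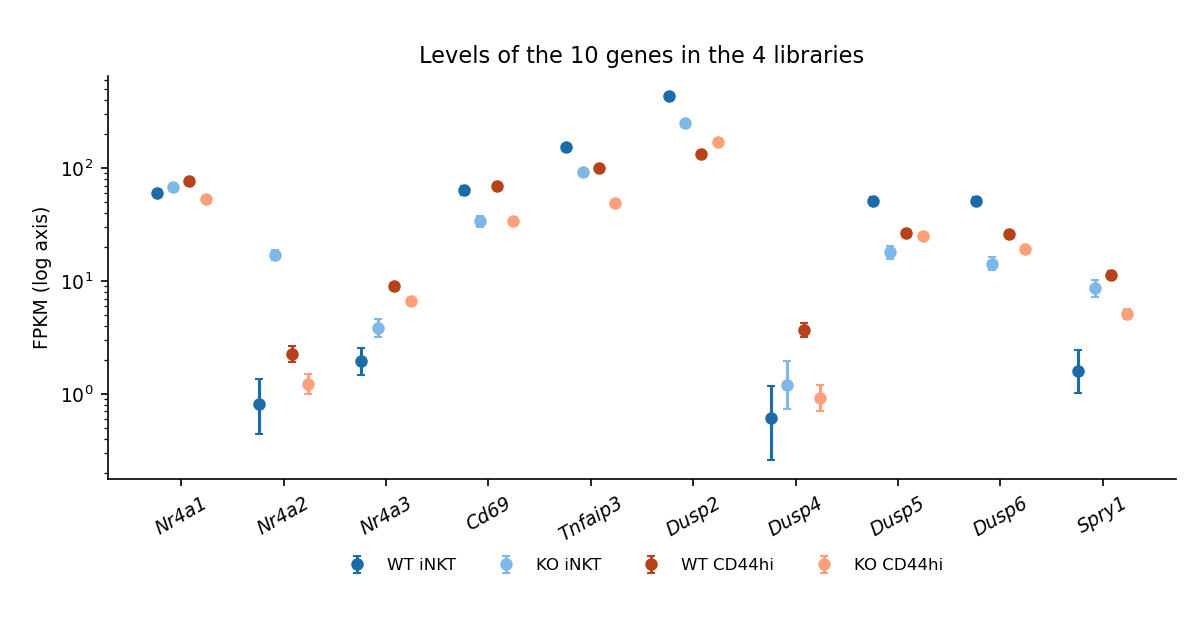
FPKM (log axis) of the 10 genes in the 4 libraries, 1 point per library, with bars for the 95% counting interval. Nr4a2 in KO iNKT (17.0 FPKM) lies far above its other 3 points (0.823 to 2.25), while Nr4a1 stays between 53.4 and 77.3.

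Nr4a1, which encodes NUR77 (GRCm38 chromosome 15, 101254269 to 101274795, plus strand), was at 59.9 FPKM (WT) and 68.3 (KO) among iNKT cells and at 77.3 (WT) and 53.4 (KO) among CD44hi cells. It was the steadiest of the 10, with 1.45-fold between its highest and lowest library. Nr4a2, which encodes NURR1 (chromosome 2, 57106830 to 57124003, minus strand), was at 0.823 FPKM (WT) and 17.0 (KO) among iNKT cells and at 2.25 (WT) and 1.23 (KO) among CD44hi cells. Here KO iNKT alone was high, and the WT iNKT value rests on an estimated 14 fragments. Nr4a3, which encodes NOR1 (chromosome 4, 48045153 to 48086447, plus strand), was at 1.96 FPKM (WT) and 3.84 (KO) among iNKT cells and at 9.03 (WT) and 6.66 (KO) among CD44hi cells. Both CD44hi libraries were above both iNKT libraries for this gene.

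Because the 3 NR4A proteins bind the same DNA elements, their makeup was also compared. Their summed level was 62.7 FPKM (WT) and 89.1 (KO) among iNKT cells and 88.6 (WT) and 61.3 (KO) among CD44hi cells. Nr4a1 made up 95.6% (WT) and 76.6% (KO) of the sum among iNKT cells and 87.3% (WT) and 87.1% (KO) among CD44hi cells. Nr4a2 took 19.1% in KO iNKT and 1.31% to 2.54% in the other libraries. Nr4a3 took 10.2% and 10.9% in the CD44hi libraries and 3.13% and 4.31% in the iNKT libraries. The KO iNKT and WT CD44hi sums were thus close, with Nr4a2 as the second factor in KO iNKT and Nr4a3 in WT CD44hi.

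**Figure D2:**
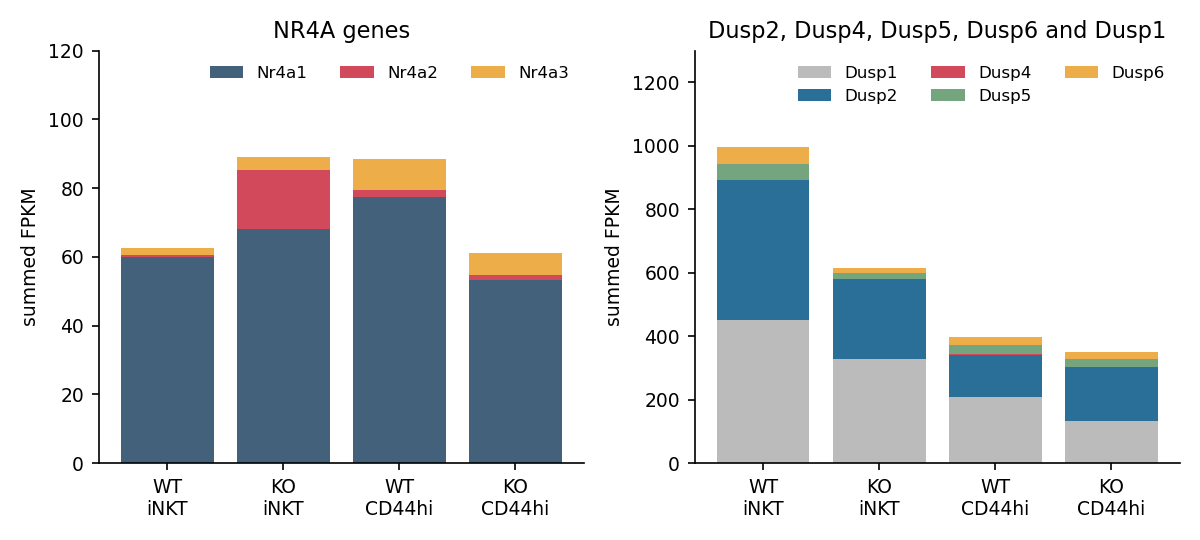
Summed FPKM of the NR4A genes (left) and of the 5 named DUSP genes (right) in each library, as stacked bars. Nr4a2 takes 19.1% of the sum in KO iNKT and no more than 2.54% elsewhere, and the DUSP stack is tallest in WT iNKT, where Dusp1 and Dusp2 make up most of it.

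Promoter sequence from RefSeq (GRCm38.p6) was at hand for 8 of the 10 members, all but Cd69 and Dusp4, in 9 windows from 250 bases before to 50 after a start, since Tnfaip3 has 2. The NR4A promoters are shown because these genes are classic targets of CREB, the factor that binds the cAMP response element. The 250 bases before the start follow, 5′ to 3′ on the strand of the gene, with every TGACG or its reverse complement in capitals, the short form of that element.
Nr4a1, chr15:101266596-101266845, plus strand: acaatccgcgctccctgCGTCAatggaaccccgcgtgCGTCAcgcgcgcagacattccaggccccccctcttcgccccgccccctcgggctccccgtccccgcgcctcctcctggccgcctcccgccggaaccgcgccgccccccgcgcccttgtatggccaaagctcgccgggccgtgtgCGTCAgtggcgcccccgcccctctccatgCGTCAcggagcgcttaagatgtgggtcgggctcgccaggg
Nr4a2, chr2:57124004-57124253, minus strand: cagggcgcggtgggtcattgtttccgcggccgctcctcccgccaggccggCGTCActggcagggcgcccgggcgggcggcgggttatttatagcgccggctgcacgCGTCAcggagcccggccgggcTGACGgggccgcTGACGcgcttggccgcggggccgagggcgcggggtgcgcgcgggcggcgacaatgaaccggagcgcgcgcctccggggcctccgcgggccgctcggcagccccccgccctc
Nr4a3, chr4:48045055-48045304, plus strand: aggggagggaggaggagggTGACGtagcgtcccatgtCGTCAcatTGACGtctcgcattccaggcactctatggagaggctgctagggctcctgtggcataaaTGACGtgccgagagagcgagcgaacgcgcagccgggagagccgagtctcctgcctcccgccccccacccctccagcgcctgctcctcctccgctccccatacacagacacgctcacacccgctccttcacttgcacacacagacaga
Each of the 3 promoters holds 4 copies of TGACG, counted on both strands. At least 4 copies occur in 0.231% of the 32851 promoter windows of the table (76 windows), and none of the other 6 member windows holds more than 1. TGACG holds a CpG, and this share was not matched for CpG content. The ratio of observed to expected CpG was 0.913 in Nr4a1, 1.04 in Nr4a2 and 0.866 in Nr4a3, beside a median of 0.384 over all windows. The motif TGACG was chosen after the sequences were seen. The full element TGACGTCA is in 0 of the 9 member windows and in 1.79% of all windows. The core TGACGT of 6 bases is in Nr4a3 (3 copies), Tnfaip3 and Dusp5 and in 7.51% of all windows; it contains TGACG, so those copies are counted in both. The EGR motif GCGNGGGCG is in Nr4a1, Nr4a2 and Dusp2 and in 5.55% of all windows. A match is a description of letters, and Nr4a1 and Nr4a2 hold 4 copies each while their levels followed different patterns. The Nr4a1 window lies before a RefSeq start inside the GENCODE gene span.

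Cd69 (chromosome 6, 129267325 to 129275436, minus strand) was at 63.4 FPKM (WT) and 33.8 (KO) among iNKT cells and at 70.1 (WT) and 34.0 (KO) among CD44hi cells. The pattern followed genotype: both KO libraries were low and near each other, and both WT libraries high. Tnfaip3 (chromosome 10, 19000910 to 19015657, minus strand) was at 153 FPKM (WT) and 93.0 (KO) among iNKT cells and at 101 (WT) and 48.9 (KO) among CD44hi cells. Again each KO library was below its WT counterpart, and each iNKT library above the CD44hi library of its genotype. The Tnfaip3 promoter upstream of its gene start is shown for the NF-kB motif (GGG and TTTCC with any 2 bases between), since A20 is both a target and an inhibitor of NF-kB. Capitals mark that motif, the AP-1 motif TGANTCA, the response element core of 6 bases and the TATA box (the letters TATAAA), on either strand.
Tnfaip3, chr10:19015411-19015660, minus strand: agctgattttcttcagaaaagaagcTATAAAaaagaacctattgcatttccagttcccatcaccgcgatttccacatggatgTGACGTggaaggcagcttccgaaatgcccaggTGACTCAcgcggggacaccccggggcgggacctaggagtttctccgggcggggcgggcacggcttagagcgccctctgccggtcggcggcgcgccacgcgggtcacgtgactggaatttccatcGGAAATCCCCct
The NF-kB motif begins 12 bases before the start and occurs in 1.63% of all windows; of the members, Dusp5 also holds it. AP-1 letters occur in 1 of the 9 member windows and in 7.81% of all windows, and the TATA box in Nr4a2 and Tnfaip3 and in 13.6% of all windows. The NR4A monomer site AAAGGTCA is in 0 of the 9 and in 1.51% of all windows. Every one of the 8 members had a window above the median ratio of observed to expected CpG of all windows (0.384), from 0.713 in Dusp2 to 1.04 in Nr4a2.

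Among the phosphatases, Dusp2 (PAC1, a nuclear phosphatase of ERK and p38; chromosome 2, 127336159 to 127338376, plus strand) was at 439 FPKM (WT) and 251 (KO) among iNKT cells and at 132 (WT) and 172 (KO) among CD44hi cells. Dusp4 (MKP-2, also nuclear; chromosome 8, 34807297 to 34819894, plus strand) was at 0.609 FPKM (WT) and 1.21 (KO) among iNKT cells and at 3.68 (WT) and 0.924 (KO) among CD44hi cells. Dusp2 was thus highest where Dusp4 was lowest, in WT iNKT, though the iNKT values of Dusp4 rest on 8 and 18 estimated fragments. Dusp5 (a nuclear phosphatase specific for ERK; chromosome 19, 53529109 to 53542431, plus strand) was at 51.5 FPKM (WT) and 18.1 (KO) among iNKT cells and at 26.7 (WT) and 25.2 (KO) among CD44hi cells. Dusp6 (MKP-3, the cytoplasmic phosphatase specific for ERK; chromosome 10, 99263231 to 99267489, plus strand) was at 51.7 FPKM (WT) and 14.3 (KO) among iNKT cells and at 26.2 (WT) and 19.3 (KO) among CD44hi cells. Dusp5 and Dusp6 shared the order of all 4 libraries, WT iNKT above WT CD44hi, then KO CD44hi, then KO iNKT. Their ratio stayed between 0.997 and 1.302. GENCODE places an antisense transcript over Dusp5, and the kit does not mark strand, so reads of the 2 cannot be told apart.

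The nuclear Dusp5 and cytoplasmic Dusp6 were the closest pair among the 10 in level over the libraries, with a distance of 0.33 between their centred log2(FPKM + 1) values; the next pair, Cd69 and Dusp5, was at 0.84. Their upstream sequences are set side by side for that reason, with the motifs named above and the EGR motif in capitals.
Dusp5, chr19:53528895-53529144, plus strand: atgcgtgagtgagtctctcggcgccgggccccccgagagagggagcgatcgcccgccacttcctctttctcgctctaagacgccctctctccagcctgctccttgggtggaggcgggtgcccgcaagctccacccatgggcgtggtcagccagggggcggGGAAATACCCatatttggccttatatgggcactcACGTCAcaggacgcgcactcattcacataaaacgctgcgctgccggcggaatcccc
Dusp6, chr10:99262981-99263230, plus strand: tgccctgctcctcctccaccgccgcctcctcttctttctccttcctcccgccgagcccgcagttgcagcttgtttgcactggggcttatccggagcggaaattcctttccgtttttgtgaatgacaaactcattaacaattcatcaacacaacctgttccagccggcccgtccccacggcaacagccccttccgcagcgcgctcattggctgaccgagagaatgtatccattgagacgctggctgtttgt
Dusp5 holds 1 TGACGT and 1 NF-kB motif, and none of the 7 motifs fixed for the search is in the Dusp6 window. The pair was thus alike in level without sharing a searched motif.

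Spry1 (chromosome 3, 37639947 to 37644598, plus strand) was at 1.61 FPKM (WT) and 8.62 (KO) among iNKT cells and at 11.3 (WT) and 5.10 (KO) among CD44hi cells. WT iNKT was low and WT CD44hi high, with both KO libraries between them. A provisional transcript on the other strand overlaps Spry1 in GENCODE, with the same limit on strand as for Dusp5. Its paralogue Spry2 was highest where Spry1 was lowest and lowest where Spry1 was highest, at 13.5 FPKM (WT) and 7.61 (KO) among iNKT cells and at 1.20 (WT) and 6.44 (KO) among CD44hi cells. The ratio of Spry1 to Spry2 was 0.119 (WT) and 1.13 (KO) among iNKT cells and 9.42 (WT) and 0.792 (KO) among CD44hi cells. The WT cell types thus held mostly opposite Sprouty genes, and each KO library held both at similar levels. Whether Spry2 in KO CD44hi comes from T cells was not tested.

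The first comparison, KO iNKT against WT iNKT, asks how the genotype changes these reporters in the lineage. Nr4a2 and Spry1 were higher in KO iNKT, Dusp5 and Dusp6 were lower, and the other 6 stayed within 2-fold. These are 4 of 10 members called, against a background of 9.42% of all measured genes called in either direction (6.08% higher, 3.34% lower). The list holds 2 in each direction, and 5 of the 10 differences were below 0, so the reporters did not move as a block. Nr4a2 was 20.7-fold higher (12.5 to 39.2), a difference of 3.30 on the log2(FPKM + 1) scale that ranked 24 from the top among 10818 measured genes. Spry1 was 5.36-fold higher (3.35 to 8.75; difference 1.88). Dusp6 was 3.61-fold lower (3.10 to 4.24; difference -1.78) and Dusp5 2.85-fold lower (2.45 to 3.32; difference -1.46), that is, both ERK-specific phosphatases.

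The members within 2-fold in the iNKT pair leaned both ways. Cd69 lay just inside the limit at 1.88-fold lower (1.63 to 2.17; difference -0.89). Dusp2 was 1.75-fold lower (1.66 to 1.85) and Tnfaip3 1.65-fold lower (1.56 to 1.74). Nr4a3 was 1.96-fold higher in plain ratio (1.40 to 2.74) but 0.71 on the log2(FPKM + 1) scale, and the 1.98-fold ratio of Dusp4 has an interval of 0.861 to 5.53, which includes no difference. Nr4a1 differed by 1.14-fold (1.03 to 1.26). The median of the 10 differences was -0.26, beside 0.05 over all measured genes. Markers listed for other cells also had reads in the iNKT libraries and differed between them, though 1 or 2 genes held most of several sums. B cell markers summed to 18.0 FPKM in WT iNKT and 39.5 in KO iNKT, with 6 and 4 of 12 at 0, and of the 2 measured Cd74 was higher (14.4 to 33.1 FPKM). Myeloid markers summed to 314 FPKM in WT and 188 in KO, with 3 of 10 measured lower and most of the sum in Ly6c2 (275 and 167). Plasmacytoid dendritic cell markers summed to 150.03 and 98.8 FPKM, with 1 of 3 measured lower (Ccr9, 41.0 to 8.81) and most of the sum in Bst2 (101 and 78.7), while the defining genes Siglech and Klk1 were at 0 in both. Natural killer cell markers summed to 201 and 104 FPKM, with Gzmb, Prf1 and Tyrobp lower and Eomes higher of 5 measured. Most of that sum was in Klrb1c (177 and 96.2), which is also among the iNKT markers, while Ncr1 was at 0.154 and 0.285. Of follicular helper T cell markers 4 of 5 measured were higher in KO iNKT, with a summed level of 17.6 FPKM in WT and 256 in KO. Most of both sums was in Pdcd1 (10.2 and 187). The part of all these markers in the result was not tested.

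KO CD44hi was compared with WT CD44hi for the same question in CD4+ T cells. Dusp4, Tnfaip3, Cd69 and Spry1 were lower in KO CD44hi, none of the 10 was called higher, and Dusp2 alone had a difference above 0. The background was 3.58% of all measured genes called (2.44% higher, 1.14% lower), and 47.6% of all measured genes had a difference below 0. Dusp4 was 3.98-fold lower (2.94 to 5.38; difference -1.28), Spry1 2.22-fold lower (1.93 to 2.54; difference -1.01), Tnfaip3 2.06-fold lower (1.99 to 2.14; difference -1.03) and Cd69 2.06-fold lower (1.92 to 2.21; difference -1.02). As deposited, Dusp4 alone of these is clear of the 2-fold limit, and the other 3 sit just past it. Dusp4 was at 3.68 FPKM in WT CD44hi and 0.924 in KO CD44hi, so a filter at 5 FPKM drops it and leaves 3 members lower. Nr4a1 was 1.45-fold lower (1.38 to 1.52), Nr4a2 1.83-fold lower (1.41 to 2.38), Nr4a3 1.36-fold lower (1.24 to 1.49) and Dusp6 1.36-fold lower (1.25 to 1.46), all within 2-fold. For Dusp5 the interval of the ratio, 0.873 to 1.02, includes 1, while Dusp2 was 1.301-fold higher (1.25 to 1.35). The median of the 10 differences was -0.53, beside 0.01 over all measured genes.

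The CD44hi libraries held RNA of other cells, and more of it in KO. Of 9 plasmacytoid dendritic cell markers 8 were called higher in KO CD44hi and the summed level was 165 FPKM in WT and 727 in KO; none was at 0 in either library. B cell markers summed to 1892 and 3032 FPKM (0 of 11 measured called), and red cell and platelet markers to 149.5 and 722 (4 of 4 measured higher). Regulatory T cell markers summed to 344 FPKM in WT and 159 in KO, with 3 of 6 lower and Foxp3 at 53.8 and 13.4, and follicular helper markers to 224 and 99.9, with 4 of 6 lower. Their part in the lower Dusp4, Tnfaip3, Cd69 and Spry1 was not tested. When the libraries were scaled to 17 T cell identity genes, which shifted the median of all genes by 0.31 in this pair, Dusp4 remained called (difference -1.01), the other 3 did not (-0.69 in Spry1, -0.68 in both Cd69 and Tnfaip3), and 8 of the 10 differences were below 0, that of Dusp5 turning to 0.25. Under that scaling the calls over all genes split as 452 higher and 61 lower, against 277 and 129 as deposited.

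**Figure D3:**
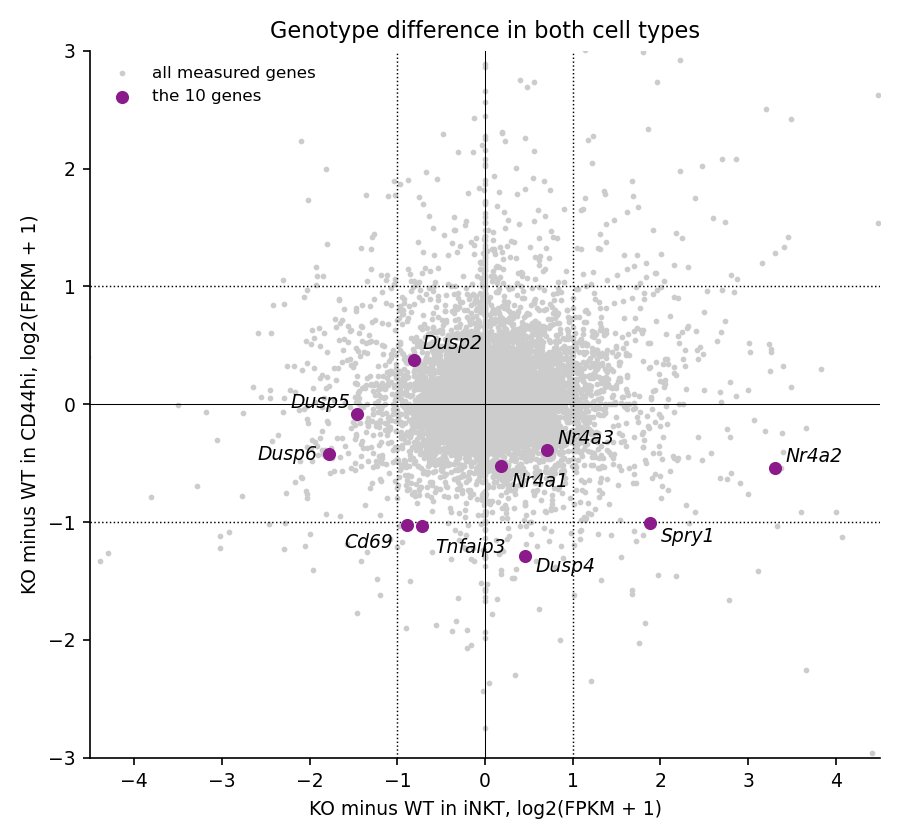
KO minus WT difference in log2(FPKM + 1) in iNKT (horizontal) and in CD44hi (vertical) for the 11719 genes that reached 1 FPKM somewhere (grey; 12 lie outside the axes), with the 10 genes in purple and dotted lines at the 2-fold limit. Nr4a2 and Spry1 lie in the lower right, Dusp5 and Dusp6 at the left, and Cd69, Tnfaip3, Dusp4 and Spry1 on or below the lower line.

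Comparing the 2 genotype differences asks whether the members responded alike in both cell types. They differed by 2-fold or more for 7 of the 10, against 11.5% of all genes measured (6.15% in the direction of a higher iNKT difference, 5.37% in the other). The iNKT difference exceeded the CD44hi difference by 3.85 for Nr4a2, 2.89 for Spry1, 1.74 for Dusp4 and 1.10 for Nr4a3 on the log2(FPKM + 1) scale. For 3 genes the iNKT difference was the lower one, by 1.38 for Dusp5, 1.36 for Dusp6 and 1.18 for Dusp2. Cd69 (0.13), Tnfaip3 (0.31) and Nr4a1 (0.71) differed by less. Cd69 and Tnfaip3 were the 2 members lower in KO by similar amounts in both cell types, and Spry1 was the 1 member called in opposite directions.

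WT iNKT was compared with WT CD44hi to describe how the cell types differ at rest. Dusp2 was 3.32-fold higher in WT iNKT (3.17 to 3.48), while Spry1 was 7.02-fold (4.55 to 11.2), Dusp4 6.04-fold (3.07 to 14.5) and Nr4a3 4.61-fold lower (3.50 to 6.14). The background was 14.6% called (3.65% higher, 10.9% lower). Dusp6 at 1.97-fold higher (1.80 to 2.16) and Dusp5 at 1.93-fold higher (1.75 to 2.12) lay just inside the limit, and Nr4a2 was 2.73-fold lower in plain ratio (1.62 to 5.27) but uncalled at its low level. Cd69 was nearly level, at 1.11-fold lower (1.004 to 1.22). The cell types also differ in depth and in the number of genes listed in their files (23720 and 23746), which cannot be told apart from cell type. Other cells' markers moved with it too: between WT iNKT and WT CD44hi, B cell markers summed to 18.0 and 1892 FPKM, regulatory T cell markers to 131 and 344 (Foxp3 0.446 and 53.8) and follicular helper markers to 17.6 and 224. Of these 2 libraries WT CD44hi alone held the Y-linked Ddx3y. Their part in the higher Dusp2 and the lower Spry1, Dusp4 and Nr4a3 of the WT iNKT library was not tested. Scaling to the T cell genes, which shifts the median of all genes by 0.39 here, added Tnfaip3 (1.04), Dusp5 (1.35) and Dusp6 (1.38) as higher and turned Nr4a1 (0.07) and Cd69 (0.29) above 0; over all genes it gave 1019 higher and 822 lower calls, against 410 and 1226.

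Between the KO libraries 1 member was called, against 4 between the WT libraries. Nr4a2 was 13.8-fold higher in KO iNKT than in KO CD44hi (11.1 to 17.4; difference 3.01), and no other member was called, against a background of 12.1% (3.02% higher, 9.06% lower). Tnfaip3 was 1.90-fold higher (1.81 to 2.001) and Spry1 1.69-fold higher (1.36 to 2.07), while Nr4a3 was 1.73-fold lower (1.43 to 2.12). Dusp2 was 1.46-fold higher (1.39 to 1.53), and Dusp5 and Dusp6 were 1.39-fold (1.21 to 1.61) and 1.35-fold lower (1.17 to 1.57). The intervals of Cd69 (0.873 to 1.12) and Dusp4 (0.742 to 2.29) include a ratio of 1. The 4 members that set the WT cell types apart, Dusp2, Spry1, Dusp4 and Nr4a3, were all within 2-fold between the KO cell types. The 2 comparisons share no library, and the difference between them was not tested. Markers of other cells differed here too. In KO iNKT and KO CD44hi, B cell markers summed to 39.5 and 3032 FPKM and myeloid markers to 188 and 880. Plasmacytoid dendritic cell markers summed to 98.8 and 727 FPKM, and red cell and platelet markers to 13.0 and 722. Follicular helper markers went the other way, at 256 and 99.9 FPKM. Their part in the member differences between the KO libraries was not tested. With T cell gene scaling Tnfaip3 was also called (1.22), Cd69 turned above 0 (0.29), and over all genes 797 were higher and 862 lower, against 347 and 1040.

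The rest of the induced and signalling genes was described with lists that hold none of the 10. Of 25 measured immediate early genes, KO iNKT held 4 higher and 3 lower (median difference 0.22), so this group also split. That share is above the 9.42% of all genes called (6.08% higher, 3.34% lower). Egr2, a factor that acts downstream of the receptor in iNKT selection, was 7.44-fold higher (5.10 to 11.6; 1.96 to 14.6 FPKM) and Egr3 4.65-fold higher (3.75 to 5.77; 5.43 to 25.3 FPKM). Bhlhe40, a factor of cytokine production, was 5.11-fold lower (4.45 to 5.90; 74.9 to 14.7 FPKM), and Jun, an AP-1 subunit, went from 69.0 to 18.0 FPKM. In KO CD44hi 1 of 26 was lower, Bhlhe40 (45.3 to 22.0 FPKM), and none was higher, a share near the 3.58% of all genes called. Of the 26 differences 20 were below 0 (median -0.33), and 13 with T cell gene scaling (median 0.01). As deposited, members and immediate early genes alike were thus mostly on the low side in KO CD44hi, where 47.6% of all measured genes were below 0. As deposited, this was not particular to them. Also below 0 were 18 of 21 A20 and NF-kB genes, 15 of 18 receptor-proximal, 13 of 17 ERK cascade and 13 of 17 T cell identity genes. Other DUSP genes (5 of 12) and JNK and p38 genes (3 of 10) did not lean low. The lean of those lists depended on the scaling. With T cell gene scaling, which raised the median of all genes by 0.31, 8 of the 10 members were below 0. Below 0 there were also 1 of 21 A20 and NF-kB genes, 6 of 18 receptor-proximal, 3 of 17 ERK cascade and 8 of 17 T cell identity genes.

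Relatives of the members were called in a share near the background of 9.42% in the iNKT pair (1 of 11 other DUSP genes) and above the 3.58% in the CD44hi pair (2 of 12, and 1 of 3 Sprouty and SPRED genes), on few genes. Of the 11 measured other DUSP genes in the iNKT pair, Dusp3 alone was called (0.0968 to 1.43 FPKM). In the CD44hi pair, Dusp9 was higher (0.379 to 1.82 FPKM) and Dusp14 lower (2.92 to 0.670 FPKM) of 12. Dusp1, the most abundant of these and a phosphatase of p38 and JNK, was at 453 FPKM (WT) and 330 (KO) among iNKT cells and at 209 (WT) and 132 (KO) among CD44hi cells, and with Dusp2 it made up 67.8% to 81.1% of the summed FPKM of 19 DUSP genes. Of 3 measured Sprouty and SPRED relatives, Spry2 was 5.38-fold higher in KO CD44hi (3.93 to 7.52), and none was called in the iNKT pair, where Spry2 was 1.77-fold lower (1.33 to 2.34). None of 21 A20 and NF-kB genes was called in either pair, and their median difference was -0.06 for iNKT and -0.14 for CD44hi; both medians are above 0 with T cell gene scaling (0.15 and 0.20). Tnfaip3 was therefore lower in KO CD44hi while NF-kB subunits and the inhibitor gene Nfkbia (219 and 173 FPKM) stayed within 2-fold.

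Calls among receptor-proximal, ERK cascade, and JNK and p38 genes were few, as they were over all genes (9.42% for iNKT, 3.58% for CD44hi). Those counts show nothing particular to these groups. None of 18 receptor-proximal signalling genes and none of the measured JNK and p38 genes (9 in iNKT, 10 in CD44hi) was called in either genotype comparison. Of 17 measured ERK cascade genes, Rasgrp1, which activates Ras in T cells, was lower in KO iNKT (80.1 to 36.5 FPKM, 2.19-fold, 2.03 to 2.37), and none was called in CD44hi. Among 26 inhibitors of receptor signalling, KO iNKT held 2 higher and 3 lower, a share above the 9.42% of all genes. The phosphatase gene Ptpn6 (96.4 to 228 FPKM) and the ubiquitin ligase gene Rnf128 (1.52 to 6.82) were the highest, and Cish (31.7 to 7.23) and Ptpn22 (234 to 78.6) the lowest. In KO CD44hi, Cish (33.7 to 15.2 FPKM) and Ubash3a (45.5 to 18.4) were lower, 2 of the 26, against 3.58% of all genes. Ubash3a, an inhibitor of receptor-proximal kinases, was also the third gene called lower in KO iNKT (12.6 to 4.37 FPKM). Of 17 T cell identity genes, which include Ubash3a, 1 was higher (Tcf7, 159 to 558 FPKM) and 4 lower in KO iNKT, among them Thy1 (449 to 82.7) and Cd2 (166 to 63.3), and Ubash3a alone was called in CD44hi, lower. The iNKT calls among these 17 genes were also a larger share than the 9.42% of all genes. Of 7 measured genes of tissue exit, on which CD69 acts, Ccr7 was higher in KO iNKT (13.2 to 34.6 FPKM) and none was called in CD44hi. S1pr1, the receptor that CD69 removes, was at 27.0 FPKM (WT) and 41.8 (KO) among iNKT cells and at 107 (WT) and 69.7 (KO) among CD44hi cells.

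**Figure D4:**
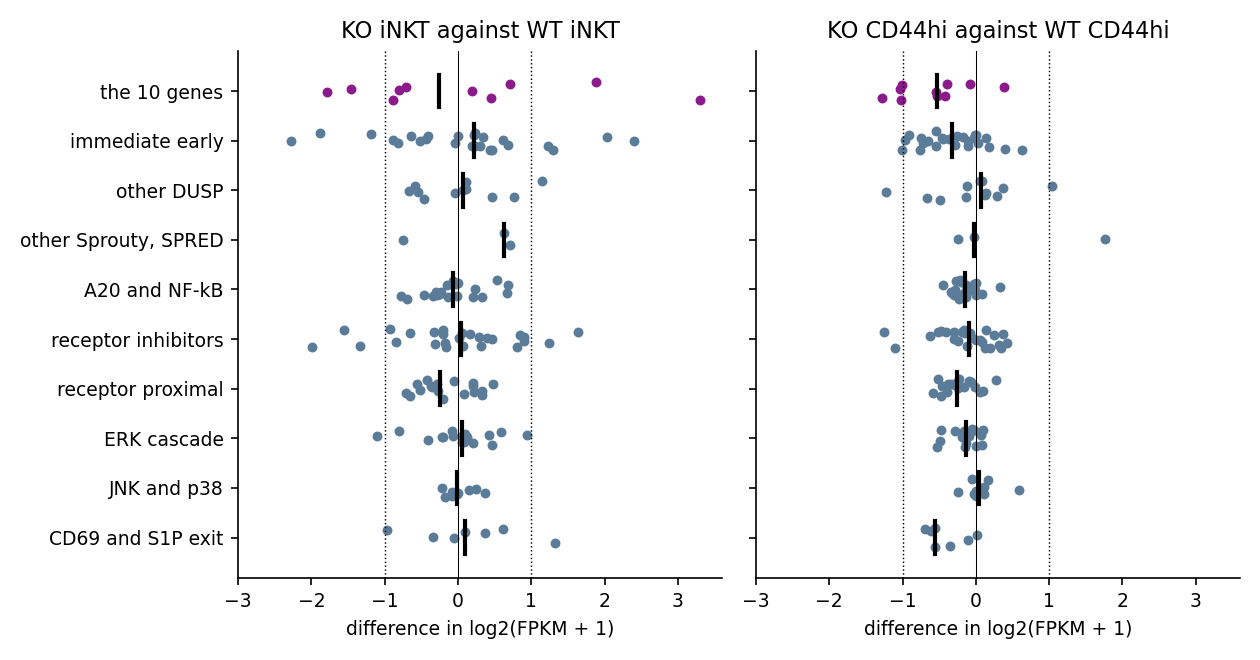
Difference in log2(FPKM + 1) for the 10 genes (purple) and for 9 lists of related genes (blue), 1 point per measured gene, for KO against WT in iNKT (left) and CD44hi (right); black bars are medians and dotted lines the 2-fold limit. The 10 genes span -1.78 to 3.30 in iNKT and -1.28 to 0.38 in CD44hi, where their median is -0.53.

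Genes with the most similar levels over the 4 libraries were sought among 8312 genes for the 9 members that span 2-fold, by the distance between centred log2(FPKM + 1) values. Nearest to Nr4a2 was Prg4 (distance 0.11), at 4.07 FPKM (WT) and 51.4 (KO) among iNKT cells and 7.65 (WT) and 4.94 (KO) among CD44hi cells, and then Fam84a (0.32). Nearest to Nr4a3 were Baiap3 (0.13) and Fxyd5 (0.14), to Cd69 Rnase4 (0.26) and Cbx8 (0.30), and to Tnfaip3 Socs1 (0.30), a suppressor of cytokine signalling, and Pvr (0.39). Dusp2 was nearest to Ero1l (0.15) and Btbd11 (0.16), and Dusp4 to Capg (0.17). For Dusp5 these were Nr1d2 (0.012) and Etv5 (0.066), an ETS factor at 6.05, 1.49, 2.84 and 2.47 FPKM in the same order. For Dusp6 they were the survival gene Bcl2 (0.086), at 23.6, 6.31, 12.7 and 9.04 FPKM, and Ptpn22 (0.16). Spry1 was nearest to Hivep3 (0.32) and the p38 beta gene Mapk11 (0.34), at 4.24, 14.2, 24.6 and 12.0 FPKM. With 4 libraries, many genes lie close by such a distance.

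The nearest measured genes on either side of each member (20 in all, found by matching symbols in GENCODE and chosen after the values were seen) were called about as often as all genes. In the iNKT pair 3 of the 20 were called, against 9.42% of all genes, and in the CD44hi pair 1 of the 20, against 3.58%. The 3 were Rprm, listed at 0 in WT and at 2.28 FPKM in KO, 3021 kb from Nr4a2, and both neighbours of Tnfaip3, Nhsl1 (0.558 to 2.34 FPKM) and the interferon gamma receptor gene Ifngr1 (91.8 to 23.3 FPKM). In the CD44hi pair Clec12a, beside Cd69, was higher (4.32 to 13.4 FPKM). Gpd2, the other neighbour of Nr4a2, was at 3.86 (WT) and 6.05 FPKM (KO) among iNKT cells, and the neighbours of Spry1, Dusp5 and Dusp6 stayed within 2-fold in both pairs.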

How the data were processed

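Cells were sorted from mouse spleen and 4 TruSeq RNA v2 libraries, 1 per group, were sequenced, per the labels' protocols. The authors deposited 1 table of FPKM per library, per the file headers. The tools given in the submitters' processing notes, are TopHat 1.3.2, Bowtie2 2.0.0 and Cufflinks 2.0.2, with the build mm10; the annotation and filters are not given in the sources used here. The 26 symbols found only in the CD44hi files and 778 small RNA symbols were left out, and rows sharing a symbol (240 symbols) were summed, which left 22480. Depth was estimated from the steps of low FPKM values over 3029 genes with 1 GENCODE M21 transcript of at least 3000 bases; 64.4% to 68.1% of low values fell within 0.1 of a whole fragment. Member fragments use the longest transcript, so their intervals are approximate. Intervals are 95% Clopper-Pearson intervals. Differences are of log2(FPKM + 1), which understates the change of low genes. Genes called need 2-fold and at least 1 FPKM. The method was tested on simulated data. Groups came from sample titles. Alternatives changed the pseudocount, filter, scaling, gene set and handling of shared symbols. The members and lists were chosen with earlier results of these data known. Genes named beyond the members were the called list members (at most 4 per list and comparison, as the 2 largest and 2 smallest differences) and the 2 nearest patterns per member at 5 FPKM or more. One such gene is not reported here. Dusp1, Nfkbia, S1pr1, the genes used to describe the libraries and their cell types, and the chromosome neighbours were named outside that naming rule. Motif letters were matched on both strands. Python 3.11.15, numpy 2.4.6, pandas 2.3.3 and scipy 1.17.1 were used.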

Additional observations from a re-analysis of the deposited data

Results flagged for a closer look

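For Spry1 and Nr4a2, KO minus WT had opposite signs in the 2 cell types, each with a counting interval that leaves out a ratio of 1, and reached 2-fold in at least 1 of them. Nr4a1, Nr4a3 and Dusp2 also had opposite signs with such intervals but stayed within 2-fold in both. Nr4a2 differed by 3.30 in iNKT and by -0.54 in CD44hi on the log2(FPKM + 1) scale, a gap of 3.85. For Spry1 the values were 1.88 and -1.01, a gap of 2.89. With 1 library per group the difference between the cell types was not tested.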

How the results depend on the processing

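No paired analysis was possible because each group is 1 library and no result comes from a test; for the same reason no library could be left out. Of 40 member differences (10 members, 4 comparisons), all 40 kept their call and stayed within the counting interval with median-of-ratios scaling and with the highest row of a shared symbol. A pseudocount of 0.1 FPKM moved 2 and added 1 call, Nr4a2 lower in WT iNKT against WT CD44hi. T cell gene scaling moved 24, ended 3 calls (Cd69, Tnfaip3 and Spry1 in the CD44hi pair) and added 4. No call changed sign. Its counts of members were 1 lower in the CD44hi genotype pair, 4 higher in WT iNKT against WT CD44hi and 2 higher in KO iNKT against KO CD44hi; the main counts were 4, 1 and 1.

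Over all genes, T cell gene scaling gave 452 higher and 61 lower in the CD44hi pair, and 1019 (WT) and 797 (KO) higher between cell types. The pseudocount of 0.1 gave 555 lower in the iNKT pair, 492 higher and 223 lower in the CD44hi pair, 585 higher between the KO cell types, and 1125 higher and 984 lower for the difference of the effects. A filter at 5 FPKM gave 391 and 165 higher in the iNKT and CD44hi pairs and 694 (WT) and 576 (KO) lower between cell types. Of the members it left 3 lower in the CD44hi pair and 2 lower in WT iNKT against WT CD44hi, and dropped Dusp4 from both. Restricting to genes that reached 5 FPKM among the iNKT libraries gave 391 higher in the iNKT pair, 120 higher and 44 lower in the CD44hi pair, 358 (WT) and 242 (KO) lower between cell types, and 415 higher and 354 lower for the effects; fewer genes are counted by construction, and members fell to 1 lower in WT iNKT against WT CD44hi and 2 higher for the effects. Depth limits Dusp4 and Nr4a2 in WT iNKT most, at 8 and 14 estimated fragments.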
